A study of Arabidopsis thaliana with 2 samples.

Results

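The genes described here are nuclear genes of Arabidopsis thaliana that were almost without reads in untreated seedlings and clearly counted after flg22. They were chosen by their values, as nuclear genes with at least 50 reads in the flg22 library and at most 2 reads in the control library of the deposited table. The rule found 64 genes among 27416 listed genes, of which 27206 are nuclear. Both groups were whole wild-type seedlings of the strain Columbia at post germination day 10, given flg22 at 1 µmol/L for 4 h or left as the control. Each group is 1 library made from 3 biological replicates pooled before sequencing. There is therefore no replicate check on any difference, and no p-value was computed. Because the read counts chose the genes, their ratios between the libraries are a description and support nothing by themselves. What the rule did not use, namely the closest relatives of the 64 genes, their neighbours on the chromosome, their structure and their promoters, is set beside the same values for other genes. In whole seedlings, fewer cells that express a gene and less of its RNA per cell cannot be told apart.

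Flg22 is a short stretch of flagellin, the protein of the bacterial flagellum, and the receptor kinase FLS2 at the plant cell surface binds it. Perception sets off calcium influx, an oxidative burst and MAP kinase cascades, and these lead to a broad change in transcription. WRKY factors, a plant family of transcription factors, carry much of that change and bind a short DNA element, the W-box. Other elements of defence genes include the GCC-box, bound by ethylene response factors, and the as-1 core, bound by TGA factors.

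The promoters of the 64 genes were read from the RefSeq annotation of TAIR10.1, in which all 64 locus identifiers were found. The W-box was taken as TTGACC or TTGACT on either strand, and the window ran from 250 bases before to 50 bases after the annotated gene start. The first 250 bases of that window are shown for 8 genes, 5′ to 3′ on the gene's own strand, with W-boxes in capitals. CYP82C3 (chr4:15454833-15455082, plus strand) and CYP82C2 (chr4:15462100-15462349, plus strand) are shown because they are near neighbours that were both counted with flg22. AT1G22810 (chr1:8075038-8075287, minus strand), AT5G56960 (chr5:23041618-23041867, minus strand), VQ29 (chr4:17717868-17718117, plus strand) and AT5G44990 (chr5:18162878-18163127, plus strand) are shown because each holds 3 W-boxes in these bases. ELI3-2 (chr4:17855387-17855636, plus strand) and AT2G38240 (chr2:16014992-16015241, minus strand) are shown as highly counted genes of the set with none.
CYP82C3: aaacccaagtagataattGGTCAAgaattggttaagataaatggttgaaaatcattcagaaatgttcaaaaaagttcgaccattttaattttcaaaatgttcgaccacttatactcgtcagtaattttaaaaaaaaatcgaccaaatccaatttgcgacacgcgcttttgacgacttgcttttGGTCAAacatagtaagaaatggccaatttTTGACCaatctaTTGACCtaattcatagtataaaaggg
CYP82C2: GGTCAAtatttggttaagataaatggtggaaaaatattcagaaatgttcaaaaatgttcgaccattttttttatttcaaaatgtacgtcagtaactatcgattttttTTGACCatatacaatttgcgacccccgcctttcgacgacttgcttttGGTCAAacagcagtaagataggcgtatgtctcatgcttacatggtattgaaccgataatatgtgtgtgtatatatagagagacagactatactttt
AT1G22810: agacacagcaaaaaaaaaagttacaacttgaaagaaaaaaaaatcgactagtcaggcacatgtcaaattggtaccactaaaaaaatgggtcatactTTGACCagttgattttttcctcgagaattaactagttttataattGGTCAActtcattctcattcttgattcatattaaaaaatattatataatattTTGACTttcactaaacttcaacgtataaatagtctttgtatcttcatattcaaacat
AT5G56960: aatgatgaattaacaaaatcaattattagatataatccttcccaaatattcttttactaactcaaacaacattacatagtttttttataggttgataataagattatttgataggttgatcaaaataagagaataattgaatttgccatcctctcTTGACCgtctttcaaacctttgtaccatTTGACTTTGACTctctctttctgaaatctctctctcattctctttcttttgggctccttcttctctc
VQ29: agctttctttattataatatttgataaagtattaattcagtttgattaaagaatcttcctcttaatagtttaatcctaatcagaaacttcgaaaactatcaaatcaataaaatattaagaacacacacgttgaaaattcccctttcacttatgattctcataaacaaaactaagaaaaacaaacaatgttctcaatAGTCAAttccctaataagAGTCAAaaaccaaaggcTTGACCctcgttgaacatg
AT5G44990: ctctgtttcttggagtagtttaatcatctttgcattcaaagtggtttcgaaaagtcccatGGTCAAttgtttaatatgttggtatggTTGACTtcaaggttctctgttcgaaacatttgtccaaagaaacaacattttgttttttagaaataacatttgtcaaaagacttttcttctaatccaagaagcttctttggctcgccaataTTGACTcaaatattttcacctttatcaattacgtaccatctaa
ELI3-2: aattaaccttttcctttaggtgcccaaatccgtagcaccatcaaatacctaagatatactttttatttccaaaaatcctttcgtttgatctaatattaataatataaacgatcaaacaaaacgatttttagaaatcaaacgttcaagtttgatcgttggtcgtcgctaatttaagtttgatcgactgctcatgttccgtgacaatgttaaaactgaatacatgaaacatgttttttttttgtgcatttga
AT2G38240: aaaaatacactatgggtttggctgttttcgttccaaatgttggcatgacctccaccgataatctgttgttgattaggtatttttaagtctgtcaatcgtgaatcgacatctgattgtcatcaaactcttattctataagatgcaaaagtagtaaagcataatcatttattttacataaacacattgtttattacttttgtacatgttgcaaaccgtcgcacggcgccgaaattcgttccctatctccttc
The 4 W-boxes of CYP82C3 begin 232, 67, 38 and 26 bases before the gene start, and the 3 of CYP82C2 begin 250, 143 and 96 bases before it. In AT5G56960 the W-boxes at 67 and 61 bases follow each other directly. The 3 W-boxes of VQ29 all lie within 54 bases of the start.

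Gene counts summed to 24621440 reads in the flg22 library and 21414567 in the control library. For ratios a count of 0 was set to a floor of 3 reads, which is 0.122 CPM (reads scaled to the library total) with flg22 and 0.140 CPM in the control. Among the 64 genes, 16 had 0 control reads, 24 had 1 and 24 had 2. A control count of 2 is compatible, by its exact 95% Poisson interval, with up to 7.22 expected reads, so that silent here means at most a few reads and not proven absence. The same interval for 0 reads reaches 3.69 reads, above the floor of 3 used for ratios against 0. The exact interval of each such ratio starts below its value against the floor. All intervals and floors cover counting error only. On log2 ratios of RPKM after adding 1, none of 9 root marker genes differed by 2-fold, and their summed level was 84.9 RPKM with flg22 and 107 RPKM in the control. On the same scale 4 of 7 shoot marker genes were at least 2-fold lower with flg22, and their summed level was 1541 RPKM with flg22 and 4495 RPKM in the control. The 4 pollen and seed markers, which seedlings should lack, summed to 0.211 RPKM with flg22 and 2.85 RPKM in the control. The part of such shifts in the present values was not tested.

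With flg22 the 64 genes together had 10891 reads, 0.0442% of that library, against 72 reads, 0.000336%, in the control. Their individual counts with flg22 ran from 51 to 587 reads with a median of 116.5, and 35 of them had 100 or more. On the RPKM scale, which divides reads by the listed gene length and the library total, the flg22 levels ran from 0.675 to 33.9 with a median of 4.22. The highest control level among them was 0.238 RPKM. The listed length is headed as exon length, but its median over nuclear genes is 0.9502 of the gene's span in TAIR10.1, introns included. AT1G59950, for example, is listed with 2555 bases and has 963 exon bases there, so the RPKM of genes with long introns is low beside that of genes with 1 exon. The median of all nuclear genes with flg22, those without reads included, was 4.51 RPKM, and 31 of the 64 genes lay above it. Among nuclear genes with reads the median was 6.74 RPKM. The genes thus reached ordinary rather than high levels, between percentiles 29.5 and 89.2 of nuclear genes in the flg22 library.

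The same rule turned round gave few genes. Of 5949 nuclear genes with at most 2 control reads, 64 (1.08%) had at least 50 reads with flg22. Of 5609 nuclear genes with at most 2 flg22 reads, 4 (0.0713%) had at least 50 reads in the control. These 4 were the berberine-type oxidase gene AT5G44440, with 0 flg22 reads and 150 control reads, the nicotianamine synthase gene NAS2, with 2 flg22 reads and 71 control reads, the glycine-rich protein gene AT5G35660, with 0 flg22 reads and 66 control reads, and the MADS-box gene PHE1, with 2 flg22 reads and 57 control reads. Most nuclear genes that were silent in the control also had no reads with flg22, namely 4332 of the 5949. A further 147 had 10 to 49 reads with flg22, against 56 genes in the mirrored class.

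**Figure D1:**
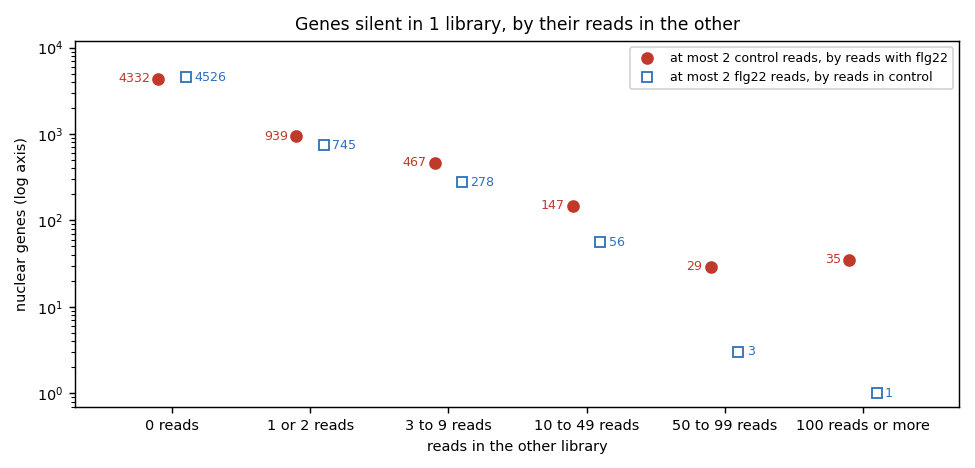
Number of nuclear genes (log axis) by the reads they had in the other library, for genes with at most 2 control reads (filled circles, by flg22 reads) and genes with at most 2 flg22 reads (open squares, by control reads). The classes of 50 to 99 and of 100 or more reads held 29 and 35 genes in the first case and 3 and 1 in the second.

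The edges of the set were not gaps. The genes with the fewest flg22 reads inside it were AT1G51915 with 51 flg22 reads and 0 control reads, AT1G78760 with 53 flg22 reads and 2 control reads, and CYP81G1 with 56 flg22 reads and 1 control read. Just outside were the glycine-rich protein gene AT2G05580 and AT5G09876, annotated as uncharacterized, each with 49 flg22 reads and 2 control reads. The receptor-like kinase gene CRK7, also just outside, had 48 flg22 reads and 1 control read. Another 26 genes had at least 50 flg22 reads but 3 control reads, and the most counted of them was the cupredoxin gene AT2G15780, with 685 flg22 reads and 3 control reads. The berberine-type oxidase gene AT1G26410, with 477 flg22 reads and 3 control reads, and AT2G32200, with 420 flg22 reads and 3 control reads, followed it.

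On log2 ratios of RPKM after adding 1, 47 of the 64 genes had a mean of at least 1 RPKM over the 2 libraries and all 47 were at least 2-fold higher with flg22, a call made for 11.3% of the 18724 genes past that filter. The rule fixed this direction, and with control levels of at most 0.238 RPKM the filter made the 2-fold call certain. The share over all genes is therefore given for scale only. Their median log2 ratio was 2.72, and over all 64 genes it was 2.34, beside -0.03 for all genes past the filter. In the authors' deposited table, which compares the same libraries, 28 of the 64 genes were higher with a false discovery rate (FDR) below 0.05, against 0.811% of all genes with a value there. In the authors' deposited table these 28 make up 14.7% of the 190 higher calls. That FDR compares the same libraries whose counts chose the genes, so these shares support nothing by themselves. The calls followed the counts: no gene of the set under 126 flg22 reads was called there, and none above 145 was missed.

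**Figure D2:**
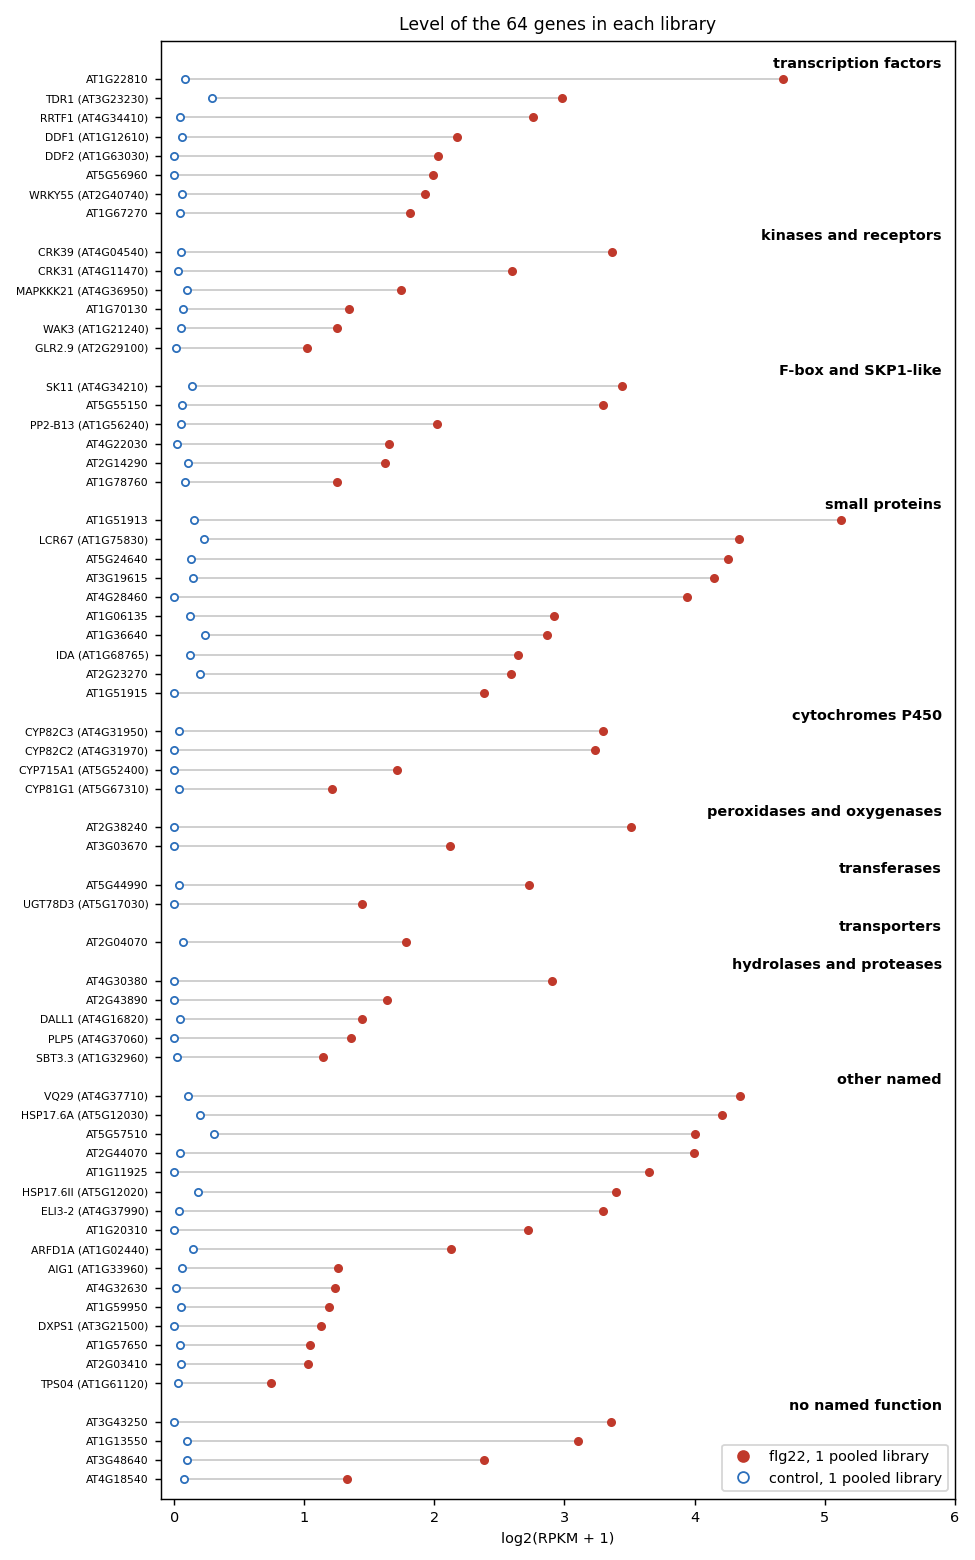
Level of each of the 64 genes as log2(RPKM + 1) with flg22 (filled) and in the control (open), 1 pooled library each, grouped by the role of the product. Control points sit near 0 for every gene by the rule, while flg22 levels run from 0.675 RPKM (TPS04) to 33.9 RPKM (AT1G51913).

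Transcription factors made up 8 of the 64 genes, with flg22 levels from 2.51 to 24.6 RPKM. AT1G22810, an AP2-domain factor gene annotated as integrase-type, was the highest, with 488 reads (24.6 RPKM) with flg22 and 1 read (0.0579 RPKM) in the control. Its ratio of reads per library total was 424-fold, with an exact 95% counting interval of 75.8 to 16798. The width of that interval comes from the single control read. On the other strand AT1G22810 shares 790 bases with the noncoding RNA gene AT1G05767, which is not in the table, and 127 bases with AT1G22800, which had 607 reads with flg22 and 437 in the control. RRTF1, the redox-responsive factor also of the AP2 class, had 197 reads (5.78 RPKM) with flg22 and 1 read (0.0337 RPKM) in the control. It shares 661 bases with the noncoding RNA gene AT4G08985, which is not in the table. RRTF1 also shares 301 bases with AT4G34412, at 183 reads with flg22 and 106 in the control. The sources used here do not say whether counting used strand, so how reads from shared bases were assigned is not known. Another annotated locus overlaps 11 of the 64 genes.

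The bHLH factor gene AT5G56960 had 181 reads (2.98 RPKM) with flg22 and 0 in the control. Its ratio was 52.5-fold with the control count set to the floor of 3 reads. WRKY55, of the WRKY family, had 145 reads with flg22 and 2 in the control. The related factor genes DDF1 and DDF2, of the same AP2 branch as the cold regulators CBF1 to CBF4, had 93 reads (3.52 RPKM) with flg22 and 1 read (0.0435 RPKM) in the control, and 76 reads with flg22 and 0 in the control. Their proteins are 69.6% identical and they lie apart on chromosome 1. TDR1, also called ERF98, an ethylene response factor, had 71 reads (6.88 RPKM) with flg22 and 2 reads (0.223 RPKM) in the control. The zinc-finger gene AT1G67270 completed the class, with 171 flg22 reads and 2 control reads. TDR1 had a level per length next below that of AT1G22810 but the lowest count of the class.

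Kinases and receptors were 6 genes. CRK39, a receptor-like kinase with the cysteine-rich DUF26 ectodomain of its family, had the most reads of the whole set, 587 (9.32 RPKM) with flg22 and 2 (0.0365 RPKM) in the control, a ratio of 255-fold (70.4 to 2113). CRK31 of the same family had 302 reads (5.04 RPKM) with flg22 and 1 read (0.0192 RPKM) in the control. The other 4 genes were counted less deeply. MAPKKK21, a kinase at the head of the MAP kinase cascade, had 77 reads (2.35 RPKM) with flg22 and 2 reads (0.0703 RPKM) in the control. The L-type lectin receptor kinase gene LecRK-V.2 (AT1G70130) had 78 reads (1.54 RPKM) with flg22 and 2 reads (0.0454 RPKM) in the control, the wall-associated kinase gene WAK3 had 86 reads with flg22 and 2 in the control, and GLR2.9, a glutamate receptor-like channel, had 97 reads with flg22 and 1 in the control. Of the 38 listed genes with a CRK symbol and a cysteine-rich receptor-like kinase as product, these 2 were in the set. Among the others 26 had a mean of at least 1 RPKM. Of these, 13 were at least 2-fold higher in flg22-treated seedlings and none lower, beside the 11.3% of all genes. Some of the 13, such as CRK20 at 0.0855 RPKM and CRK32 at 0.176 RPKM in the control, reached that mean only through flg22. For these the filter made the 2-fold call certain.

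Small proteins, with fewer than 120 residues, were 10 of the 64 genes (15.6%), beside 9.87% of all protein-coding nuclear genes and 24.8% of those with at most 2 reads in both libraries. Their median flg22 level of 10.5 RPKM was the highest of the role classes. RPKM divides reads by length, so the read limit by itself sets a higher minimum RPKM for shorter genes. AT1G51915, listed with 491 bases, had 4.22 RPKM from 51 flg22 reads, and TPS04, with 5174 bases, had 0.675 RPKM from 86. By flg22 reads the class median was 134. That was below peroxidases and oxygenases (349), P450s (274.5), transcription factors (158) and transferases (147.5), and above the other classes. AT1G51913, annotated as uncharacterized, had 359 reads (33.9 RPKM) with flg22 and 1 read (0.109 RPKM) in the control, a ratio of 312-fold (55.7 to 12367). Its neighbour AT1G51915, annotated as cryptdin-like, begins 138 bases beyond it and had 51 reads with flg22 and 0 in the control. The 2 proteins are 60.8% identical. PDF1.1 (LCR67), a plant defensin of the cysteine-rich antimicrobial kind, had 254 reads (19.3 RPKM) with flg22 and 2 reads (0.175 RPKM) in the control. AT5G24640, annotated as uncharacterized, had 217 reads (18.1 RPKM) with flg22 and 1 read (0.0961 RPKM) in the control. AT4G28460, annotated likewise, had 193 reads (14.4 RPKM) with flg22 and 0 in the control. AT4G28460 was 55.95-fold higher against the floor, and its exact counting interval starts at 45.1-fold. AT3G19615, of 93 residues, had 180 reads (16.7 RPKM) with flg22 and 1 read (0.107 RPKM) in the control, but AT3G19613, which is not in the table, covers it on the other strand. IDA, the secreted peptide precursor known for the shedding of floral organs, had 69 reads with flg22 and 1 in the control. AT1G06135, AT1G36640 and AT2G23270, also annotated as uncharacterized, had 88, 80 and 78 reads with flg22 and 1, 2 and 2 in the control.

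Cytochromes P450, the oxygenases that decorate many plant metabolites, gave 4 genes. CYP82C2, which hydroxylates the indole carbonyl nitrile made on the way to 4-hydroxyindole-3-carbonyl nitrile, had 405 reads (8.44 RPKM) with flg22 and 0 in the control. CYP82C3 had 425 reads (8.82 RPKM) with flg22 and 1 read (0.0238 RPKM) in the control. The proteins are 86.1% identical and the genes lie on chromosome 4 with 1 listed gene and 5228 bases between them. The remaining listed gene of the subfamily, CYP82C4, had 1 read with flg22 and 1 in the control. Its protein is 86.6% identical to CYP82C3 and 88.4% to CYP82C2, and no stretch of 100 bases at 95% identity links their transcripts. CYP715A1 had 144 reads (2.28 RPKM) with flg22 and 0 in the control, 41.7-fold higher against the floor. CYP81G1 had 56 reads (1.32 RPKM) with flg22 and 1 read (0.0271 RPKM) in the control, and shares 791 bases with MYBR1, whose 5138 reads with flg22 and 1891 in the control far exceed its own.

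Other oxidising and conjugating enzymes were few. AT2G38240, of the 2-oxoglutarate and Fe(II)-dependent oxygenase family, had the most reads of any gene at 0 in the control, 569 reads (10.4 RPKM) with flg22. It was 165-fold higher against the floor of 3 control reads, and its exact counting interval starts at 134-fold. Its FDR in the authors' deposited table was 0.000282. The peroxidase gene AT3G03670 had 129 reads (3.34 RPKM) with flg22 and 0 in the control, 37.4-fold higher against the floor. The glutathione transferase family gene AT5G44990 had 227 reads (5.64 RPKM) with flg22 and 1 read (0.0285 RPKM) in the control. UGT78D3, a flavonol glycosyltransferase, had 68 reads (1.72 RPKM) with flg22 and 0 in the control. AT2G04070, a MATE efflux carrier, was the single transporter gene, with 122 reads (2.43 RPKM) with flg22 and 2 reads (0.0459 RPKM) in the control.

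The F-box and SKP1-like class held 6 genes for parts of SCF ubiquitin ligases, in which an F-box protein picks the substrate and a SKP1-like protein ties it to the cullin. SK11 had 111 reads (9.84 RPKM) with flg22 and 1 read (0.102 RPKM) in the control. Its near copy SK12 is 99.4% identical over 473 bases of transcript and had 5 reads with flg22 and 0 in the control, so the division of reads between them is uncertain. Of the 18 listed genes with an SK symbol and SKP1 in the product name, 10 others had at most 2 reads in both libraries. Among all 27206 nuclear genes, 5271 had at most 2 reads in both. PP2-B13, an F-box protein with a phloem-lectin domain, had 101 reads (3.05 RPKM) with flg22 and 1 read (0.0347 RPKM) in the control. On the other strand PP2-B13 shares 1177 bases with the noncoding RNA gene AT1G56242, which is not in the table. AT5G55150, which carries DUF295, had 242 reads (8.80 RPKM) with flg22 and 1 read (0.0418 RPKM) in the control, and AT2G14290, which carries it too, had 63 reads with flg22 and 2 in the control. Of the 69 nuclear genes with DUF295 in the product name, 41 had at most 2 reads in both libraries, beside the same 5271 of 27206. AT4G22030 had 167 reads with flg22 and 1 in the control, and AT1G78760 had 53 reads with flg22 and 2 in the control. AT4G22030 is listed with a length of 3179 bases although it spans 1400 in TAIR10.1, so its RPKM of 2.13 with flg22 and 0.0147 in the control is low for its reads.

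Hydrolases and proteases were 5 genes, 3 of them at 0 in the control. AT4G30380, annotated as Barwin-related endoglucanase, had 81 reads (6.48 RPKM) with flg22 and 0 in the control, 23.5-fold higher against the floor. The patatin-like lipase gene PLP5 had 91 reads (1.56 RPKM) with flg22 and 0 in the control, 26.4-fold higher against the floor. The pectin lyase-like gene AT2G43890 had 76 reads (2.11 RPKM) with flg22 and 0 in the control, but 591 of its bases are overlapped by AT2G43900, at 368 reads with flg22 and 731 in the control. SBT3.3, a subtilase known from immune priming, had 100 reads with flg22 and 1 in the control, and the lipase gene DALL1 (AT4G16820) had 66 reads (1.73 RPKM) with flg22 and 1 read (0.0301 RPKM) in the control.

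Among 16 genes with other products, AT2G44070, of the NagB/RpiA/CoA transferase-like family, had 533 reads (14.97 RPKM) with flg22 and 1 read (0.0323 RPKM) in the control. Its ratio of 464-fold (82.8 to 18344) was the largest with a control read, but 543 of its bases overlap AT2G44065, at 968 reads with flg22 and 684 in the control. ELI3-2, a cinnamyl alcohol dehydrogenase gene first named as an elicitor-activated gene, had 382 reads (8.80 RPKM) with flg22 and 1 read (0.0265 RPKM) in the control. VQ29, a VQ-motif protein of the kind that binds WRKY factors, had 293 reads (19.4 RPKM) with flg22 and 1 read (0.0761 RPKM) in the control. The small heat shock protein genes HSP17.6A and HSP17.6II, cytosolic chaperones that lie 845 bases apart and are 83.9% identical as proteins, had 272 reads (17.5 RPKM) with flg22 and 2 reads (0.148 RPKM) in the control, and 164 reads with flg22 and 2 in the control. AT1G11925, of the Stig1 family named for its stigma-specific founder, had 228 reads (11.5 RPKM) with flg22 and 0 in the control. It was 66.1-fold higher against the floor.

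The annotated syringolide-induced protein gene AT1G20310 had 126 reads (5.57 RPKM) with flg22 and 0 in the control, and the cotton fiber protein gene AT5G57510 had 145 reads (15.02 RPKM) with flg22 and 2 reads (0.238 RPKM) in the control. TPS04, the geranyllinalool synthase of the volatile homoterpene TMTT, had 86 reads with flg22 and 2 in the control. DXPS1, a relative of the first enzyme of plastid isoprenoid synthesis, had 87 reads with flg22 and 0 in the control. AIG1, named for its induction by the bacterial effector AvrRpt2, had 78 reads with flg22 and 2 in the control. The ArfGap gene AT4G32630 had 126 reads with flg22 and 1 in the control, and the ADP-ribosylation factor gene ARFD1A had 74 reads with flg22 and 2 in the control. The oxidoreductase gene AT1G59950, AT1G57650 (annotated as ATP binding) and the Mo25 family gene AT2G03410 had 81, 79 and 62 reads with flg22 and 2 each in the control. AT2G03410 is covered by AT2G03420, which had 0 reads in both libraries. The 4 genes with no named function were AT1G13550, AT3G43250, AT3G48640 and AT4G18540. AT1G13550 had 252 reads (7.60 RPKM) with flg22 and 2 reads (0.0694 RPKM) in the control, and AT3G43250 had 171 reads (9.27 RPKM) with flg22 and 0 in the control. AT3G48640 had 70 reads (4.22 RPKM) with flg22 and 1 read (0.0693 RPKM) in the control, and AT4G18540 had 68 reads (1.51 RPKM) with flg22 and 2 reads (0.0512 RPKM) in the control.

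Genes used as standard readouts of flg22 were not in the set, since they already had reads in the control. All 10 flg22 marker genes had between 7 and 1073 control reads, and all 10 were at least 2-fold higher with flg22, beside the 11.3% of all genes past the filter. Of 10 late defence genes none was in the set, 7 had a mean of at least 1 RPKM, and 2 of these, ERF1 and SARD4, were at least 2-fold higher. PR1 had 2 reads with flg22 and 0 in the control, so that no difference was detectable at this depth. Of 7 genes for indole phytoalexins, CYP82C2 and CYP82C3 were in the set, and CYP71A13, at 439 reads with flg22 and 7 in the control, was the next lowest in the control apart from CYP82C4.

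The closest relatives of the genes, which the rule did not use, were often higher with flg22 as well, and most had reads in the control. For 44 of the 64 genes a listed nuclear gene outside the set encodes a protein at least 50% identical over at least 50% of the length. These were 42 different genes with a median identity of 72.0% over the 44 pairs. Genes of the set were left out as relatives even where they are closer, as DDF1 is to DDF2. Of the relatives, 31 had a mean of at least 1 RPKM, 17 of these (54.8%) passed the 2-fold limit upward and 3 downward, and 11 stayed within it, beside 11.3% higher and 8.27% lower among all genes. Their median log2 ratio was 1.19, with quartiles at -0.06 and 2.65, beside -0.03 for all genes. Some of the 17, such as AT1G36622 at 0.284 RPKM and CRK32 at 0.176 RPKM in the control, passed only through their flg22 level. For such genes the filter made the upward call certain, so the share of 54.8% is partly set by the filter. Without the filter the median over all 42 relatives was 0.88, beside 0 for all nuclear genes. Of the 42 relatives 19 had at least 50 control reads, and 7 had at most 2. Of the 44 pairs, 17 lie within 5 genes of each other on a chromosome.

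Among the higher relatives, the VQ-motif gene AT2G22880, closest to VQ29, had 2943 reads (347 RPKM) with flg22 and 41 reads (5.57 RPKM) in the control, a log2 ratio of 5.73 and the highest of the relatives. PP2-B14, adjacent to PP2-B13 and 91.1% identical, had 2414 reads (70.3 RPKM) with flg22 and 26 reads (0.870 RPKM) in the control. In both cases the gene of the set was the less expressed of the pair in either library. AT1G36622, next to AT1G36640, had 753 reads with flg22 and 5 in the control. AT1G71520, closest to AT1G22810, had 427 reads with flg22 and 4 in the control, and AT1G13480, closest to AT1G13550, had 1395 reads with flg22 and 33 in the control. For the most counted gene, CRK39, the adjacent CRK40 had 1327 reads (19.3 RPKM) with flg22 and 554 reads (9.25 RPKM) in the control, so CRK39 with flg22 stood at about the control level of CRK40. For CRK31, the adjacent CRK32 had 246 reads with flg22 and 9 in the control.

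Other pairs held a relative that was well counted in both libraries. AT5G38640, 91.1% identical to AT2G44070, had 727 reads with flg22 and 696 in the control, and AT2G44070 with flg22 exceeded it per length, at 14.97 RPKM against 9.70 RPKM. The peroxidase gene AT5G17820, closest to AT3G03670, had 1254 reads with flg22 and 1092 in the control. For DDF2 the relative taken was TINY, with 132 reads with flg22 and 133 in the control. TINY is 51.0% identical to DDF2, whereas DDF1, of the set, is 69.6% identical. In other pairs the relative was lower with flg22. CLA1, the plastid enzyme closest to DXPS1, had 2842 reads (31.6 RPKM) with flg22 and 11506 reads (147 RPKM) in the control, and ELI3-1, adjacent to ELI3-2, had 1380 reads with flg22 and 2995 in the control. The resistance-type gene AT2G14080, closest to AT1G57650, had 279 reads with flg22 and 714 in the control. In the remaining kind the relative had at most 2 reads in both libraries, namely CYP82C4, PDF1.3, AT5G43410, AT1G33950 and AT2G32050.

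**Figure D3:**
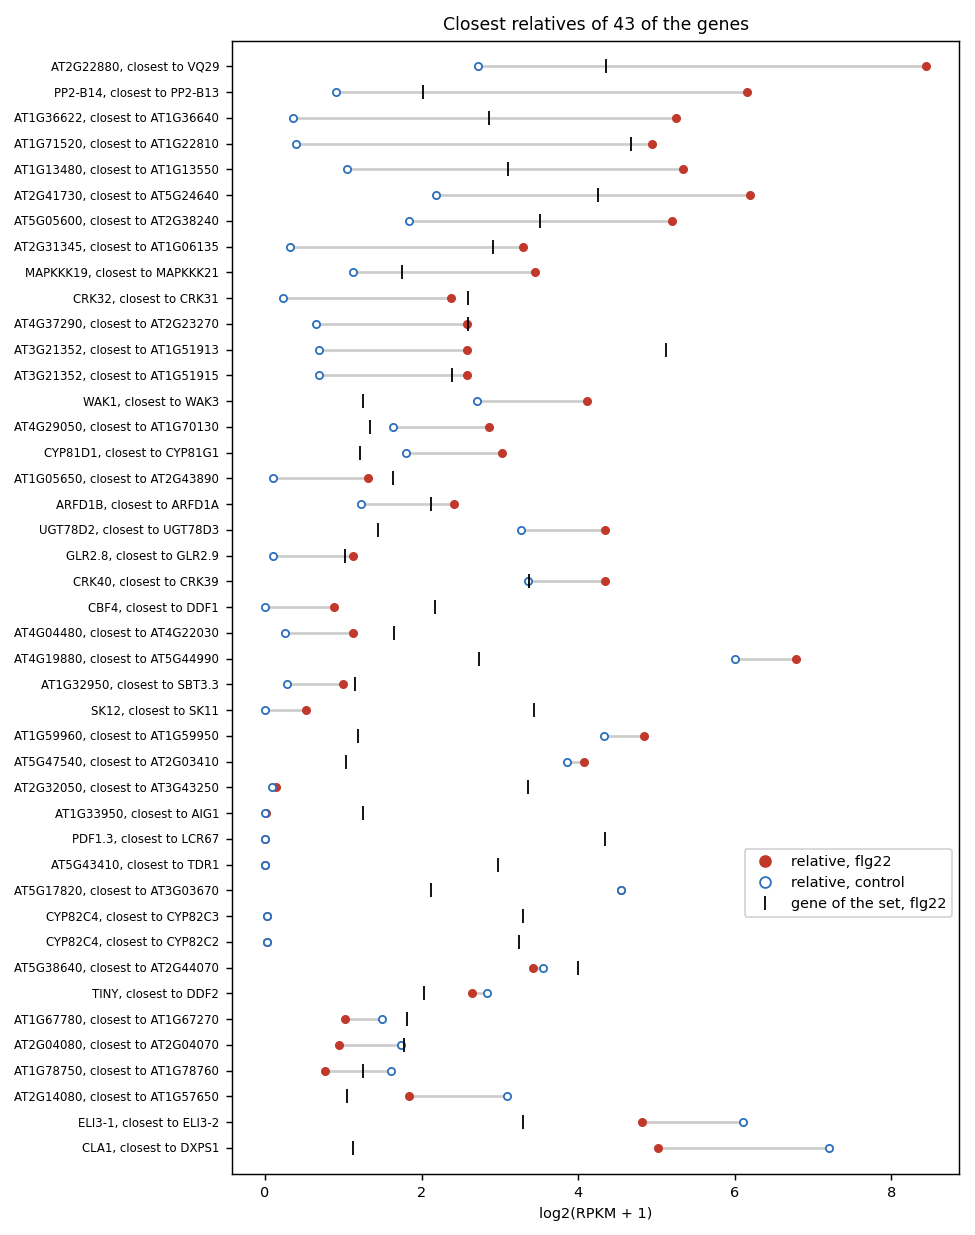
Level of the closest relative of 43 of the genes as log2(RPKM + 1) with flg22 (filled) and in the control (open). Relatives were taken outside the set and sorted by their log2 ratio. A tick gives the flg22 level of the gene of the set. The relatives run from AT2G22880 at a log2 ratio of 5.73 to CLA1 at -2.18, and those of CYP82C2, CYP82C3, PDF1.1 (LCR67), TDR1, AIG1 and AT3G43250 sit near 0 in both libraries.

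Genes of the set had a higher gene nearby more often than other nuclear genes did. The nearest listed gene outside the set, on at least 1 side, was at least 2-fold higher for 23 of the 64 genes (35.9%), against 3917 of 26655 other nuclear genes (14.7%). A neighbour was called higher only if it had a mean of at least 1 RPKM. AT1G51920 counts for both AT1G51913 and AT1G51915, and AT5G12010 for both HSP17.6A and HSP17.6II. For 8 of the 23 the higher neighbour is related in sequence, such as PP2-B14, CRK32, WRKY54 beside WRKY55, and ERF1 beside TDR1. With related neighbours left out, 16 genes (25%) had a higher neighbour, and the same exclusion was not made for the other nuclear genes. Unrelated examples are AT1G57630 beside AT1G57650, with 1362 flg22 reads and 6 control reads, and the formin gene FH8 beside LecRK-V.2, with 2076 flg22 reads and 149 control reads. AT1G51920, the next gene after AT1G51915, had 165 reads with flg22 and 3 in the control, so 3 genes in a row had at most 3 control reads. MYBR1 is both a higher neighbour of CYP81G1 and the gene that overlaps it. By chromosome, 23 of the 64 genes are on chromosome 1, 9 on 2, 6 on 3, 16 on 4 and 10 on 5, beside 6975, 4168, 5319, 4059 and 6189 protein-coding genes.

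In structure the 64 genes had single exons about as often as genes silent in both libraries. A single exon was annotated for 24 of them (37.5%), against 20.4% of 26710 protein-coding nuclear genes, 36.3% of 4812 genes with at most 2 reads in both libraries and 25.4% of 173 genes at least 8-fold higher from at least 50 control reads. Their proteins had a median of 342 residues, against 354 for all protein-coding nuclear genes, 219 for the genes silent in both libraries and 326 for the genes at least 8-fold higher.

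Promoters of the set held W-boxes about as often as those of strongly higher genes that were expressed in the control. In the 300-base window 42 of the 64 genes (65.6%) had a W-box, against 105 of 173 (60.7%) genes at least 8-fold higher from at least 50 control reads. The share was 30.4% of the genes with at most 2 reads in both libraries, 31.0% of 5933 genes within 1.2-fold, and 32.4% of all 26710 protein-coding nuclear genes. At least 2 W-boxes were found in 40.6% of the 64 genes, against 30.6% of the strongly higher genes and 7.73% of all. At least 3 were found in 13 of the 64 (20.3%), against 10.98% of the strongly higher genes and 1.48% of all. AT1G06135, AT1G13550, CYP82C3 and AT5G44990 had 4 in the window, the last with a W-box after the gene start. No test of these shares was made, and a match is a string of letters and not a site shown to be bound.

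By role, 9 of the 10 small protein genes had a W-box, IDA being the exception. It was 5 of 8 among transcription factors, 4 of 6 among kinases and receptors, 4 of 6 in the F-box and SKP1-like class, 3 of 4 P450s and 2 of 5 hydrolases and proteases. The genes without one included AT2G38240, ELI3-2, RRTF1, DDF1, DDF2, HSP17.6A, SK11 and SBT3.3. The median was 136.5 flg22 reads for the 42 genes with a W-box and 92 for the 22 without. In position, W-boxes were densest from 100 to 51 bases before the gene start, with 25 of the 85 W-boxes there, or 0.391 per promoter, against 0.231 in the strongly higher genes and 0.0848 in all protein-coding genes. From the start to 49 bases beyond it, the 64 genes held 0.0469 per promoter and the strongly higher genes 0.162.

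The other elements were searched on both strands too. The GCC-box (GCCGCC) was in 0 of the 64 windows, against 2.55% of all protein-coding genes. The G-box (CACGTG) was in 4 windows (6.25%), against 7.79% of all, and the as-1 core (TGACG) was in 15 (23.4%), against 23.1%. The as-1 core shares its letters TGAC with the W-box and may overlap it. The WT-box (GGACTTTC) was in 0 windows, against 0.487%. TATAAA, the letters of a TATA box, was in 42 windows (65.6%), against 52.6% of all and 55.1% of the genes silent in both libraries. A count of 0 says only that these letters are not in these windows.

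**Figure D4:**
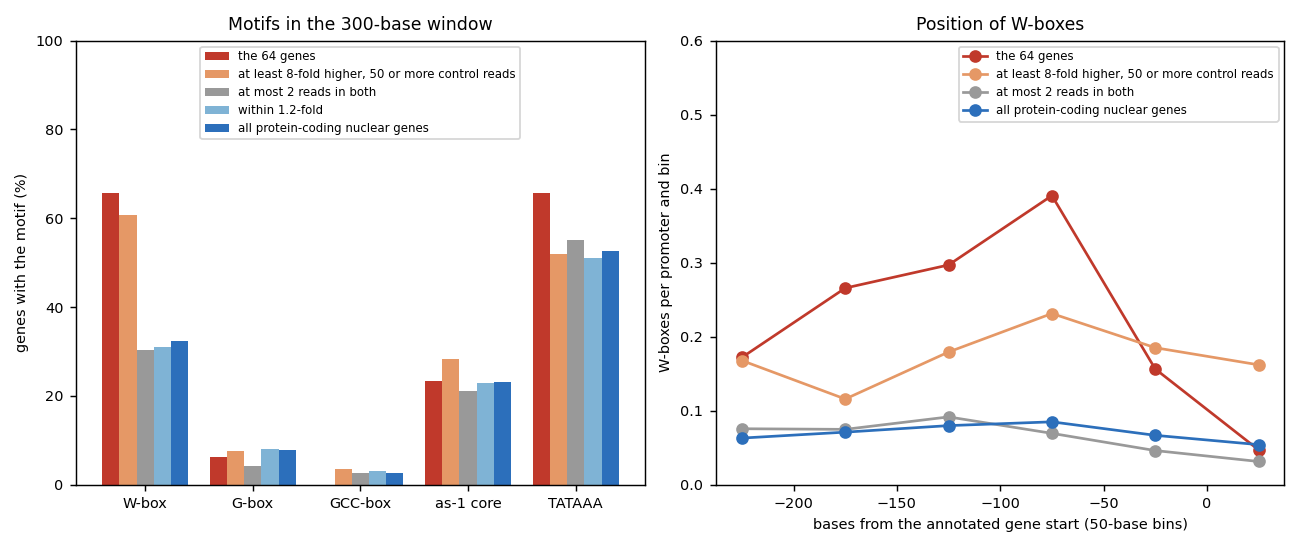
Share of genes with each motif in the window from 250 bases before to 50 after the gene start (left), and W-boxes per promoter in 50-base bins by distance from the start (right), for the 64 genes and comparison groups. The 64 genes and the genes at least 8-fold higher stand at 65.6% and 60.7% for the W-box against 32.4% of all protein-coding genes, and the 64 genes reach 0.391 W-boxes per promoter between 100 and 51 bases before the start.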

How the data were processed

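Whole-seedling RNA was sequenced as 1 flg22 and 1 control library, each from 3 pooled biological replicates, and groups were taken from the treatment label. The authors deposited read counts and RPKM per gene, a gene length (a length in bases, headed as exon length), a log2 fold change and an FDR, which is an adjusted p-value, per the file headers. Bowtie, TopHat and DESeq are named in the submitters' processing notes together with TAIR10, with no version and no role. Which program counted the reads, how it treated overlapping genes and whether it used strand is not given in the sources used here. RPKM equalled reads divided by the listed length and the library total, and a further 2 columns of scaled counts were not used.

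Genes were selected by the read limits from the raw counts as deposited by the authors. Ratios in folds are reads per library total with exact Clopper-Pearson intervals at 95%, and a floor of 3 reads per library replaced 0. Log2 ratios are of RPKM plus 1. The log2 fold change deposited by the authors is infinite for 16 of the 64 genes. Relatives were found with BLASTP (BLAST+ 2.17.0) and near copies with BLASTN at 95% identity or more over at least 100 bases. Names, structure and promoters come from the RefSeq annotation of TAIR10.1, matched by locus identifier, which holds 26719 of the 27416 identifiers. Coordinates are of TAIR10.1, and the deposited table gives none. Tables were handled in Python 3.11.15 with numpy 2.4.6, pandas 2.3.3, scipy 1.17.1 and Biopython 1.88, and the selection and intervals were tested on simulated data.

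The 64 genes, the gene lists and the comparisons were chosen with earlier results of these data known. In the account by role, genes of the set given with RPKM were those with the most flg22 reads or the highest flg22 level, up to 4 per role class, and those at 0 in the control with at least 100 flg22 reads. Other genes are given by their reads. The closest relative of 1 gene is counted but not reported here.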

Additional observations from a re-analysis of the deposited data

How the results depend on the processing

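The number of genes depends on the read limits: it was 16 with 0 control reads, 40 with at most 1, 129 with at most 5, 35 with at least 100 flg22 reads and 97 with limits on RPKM (at least 1 with flg22, at most 0.1 in the control). Scaling the control reads to the flg22 total before the limit gave 40, and at least 30 flg22 reads gave 92. The scaling lifts a count of 2 control reads above 2, so it is the same limit as at most 1. Under the same settings the mirrored count was 2, 2, 8, 1, 20, 4 and 11, below the main direction in each. The median log2 ratio of the set was 5.46 with 0.1 RPKM added, 1.18 with 5 RPKM added, 2.75 with median-of-ratios scaling and 2.34 with no filter on low values. That of the relatives was 1.49 with 0.1 RPKM added, 0.75 with 5 RPKM added, 1.23 at 30% identity, 0.79 at 70% identity, 0.88 with no filter and 1.21 without near-identical copies, above 0 throughout. The share with a W-box was 76.6% for TTGAC alone, 40.6% for at least 2 matches and 85.9% in 1000 bases before the start, where all protein-coding genes had 67.4% and the strongly higher genes 85.0%. The share with a higher neighbour was 48.4% when genes below a mean of 1 RPKM were skipped to reach the nearest neighbour. It was 25% with related neighbours left out. In the authors' deposited table the count was 17 at an FDR below 0.01 and 34 below 0.1. The absent filter, the copies, the longer window and the related neighbours were chosen after seeing the data. No paired analysis was possible because each group is 1 library, and for the same reason no replicate could be left out. Depth limits the ratios: with at most 2 control reads, the lower limit of an interval was as low as 6.07-fold and upper limits are wide.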
